A study of Mus musculus with 12 samples.

Results

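The genes described here are Junb, Jun, Jund, Fos, Fosl2, Egr1, Ier2, Ier3 and Myc, genes for AP-1 transcription factors and for other immediate early response proteins. They were taken by symbol from the deposited expression table, in which each of the 9 symbols stood at 1 locus among 13508 named genes. All 9 were among the 12823 genes that reached 1 FPKM in at least 2 of the 12 libraries and were tested. FPKM is a read level scaled to transcript length and library size. Levels of different genes can be set side by side only roughly, as the loci cover 12.1% (Fos) to 100% (Ier2) of annotated exon bases.

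The cells were mouse embryonic stem cells of the 129SvEv strain, from 2 wild type lines (WT; lines 18 and 26) and 2 lines without Arkadia (null; lines 25 and 39). Arkadia, encoded by Rnf111, is a ubiquitin ligase that removes inhibitors of SMAD signalling. Before sampling, all 12 cultures had been moved from a LIF medium (with GSK3 and MEK inhibitors) to 24 h in N2B27 medium on fibronectin, and had then spent 4 h in 10 µM SB431542, which blocks the receptor kinases for Activin, Nodal and TGFβ. One dish of each line was harvested there (SB), and the others were washed and given 10 ng/ml Activin A in N2B27 for 3 h or 6 h. The 6 groups are thus WT in SB, WT at 3 h, WT at 6 h, null in SB, null at 3 h and null at 6 h, each with 2 cell lines. The labels do not say whether a line is 1 clone or how the null allele was made. No dish received fresh medium without Activin, so Activin, release from the inhibitor, the medium change and the hours in culture cannot be told apart in any comparison with SB.

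AP-1 is a dimer of a Jun protein (JUN, JUNB or JUND) with another Jun protein or with a Fos protein, and it binds DNA through paired basic leucine zippers. Immediate early genes are transcribed without new protein synthesis when a growth factor, cytokine or stress signal arrives, often through MAP kinases and SRF. Their transcripts, such as those of Fos and Egr1, usually rise and decay fast, while JUNB is known as a target of TGFβ family signals and AP-1 proteins can bind SMAD proteins.

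Promoters are shown for the gene of the set with the largest response (Junb), for its paralogue Jun, and for Fos and Ier3, which did not pass the test in any comparison. The windows run from 250 bases before to 30 after the RefSeq start of transcription (RefSeq, GRCm38.p6), 5′ to 3′ on the gene's strand. They lie at chr8:84978719-84978998 (Junb, minus strand), chr4:95052193-95052472 (Jun, minus strand), chr12:85473640-85473919 (Fos, plus strand) and chr17:35821463-35821742 (Ier3, plus strand). Capitals mark the cyclic AMP response element core TGACG, its extended form TGACNTCA, the CCAAT box and the TATA box (TATAAA).
Junb: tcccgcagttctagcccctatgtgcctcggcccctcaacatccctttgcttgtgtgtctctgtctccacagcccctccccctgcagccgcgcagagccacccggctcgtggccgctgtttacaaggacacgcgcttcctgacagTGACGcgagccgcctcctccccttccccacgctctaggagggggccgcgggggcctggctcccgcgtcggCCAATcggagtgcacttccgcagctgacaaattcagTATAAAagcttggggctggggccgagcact
Jun: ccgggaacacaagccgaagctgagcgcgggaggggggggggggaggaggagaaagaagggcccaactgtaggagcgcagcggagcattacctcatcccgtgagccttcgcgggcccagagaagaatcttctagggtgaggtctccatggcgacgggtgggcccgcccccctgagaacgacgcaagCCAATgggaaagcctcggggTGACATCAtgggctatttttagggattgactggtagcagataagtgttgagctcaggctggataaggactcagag
Fos: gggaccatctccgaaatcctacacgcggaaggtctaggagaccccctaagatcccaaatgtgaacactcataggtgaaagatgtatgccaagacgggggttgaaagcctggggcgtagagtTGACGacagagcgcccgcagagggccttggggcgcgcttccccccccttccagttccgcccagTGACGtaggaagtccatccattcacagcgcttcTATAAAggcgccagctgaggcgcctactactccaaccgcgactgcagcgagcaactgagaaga
Ier3: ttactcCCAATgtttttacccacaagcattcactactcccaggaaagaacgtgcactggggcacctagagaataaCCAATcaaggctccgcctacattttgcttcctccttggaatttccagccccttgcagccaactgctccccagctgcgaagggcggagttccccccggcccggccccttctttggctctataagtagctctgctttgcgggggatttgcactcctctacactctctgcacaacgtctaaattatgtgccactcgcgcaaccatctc

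The same 280-base window was found for 6 of the 9 genes, the other two with one being Jund and Fosl2. It was searched on both strands, for the AP-1 site TGANTCA, the cyclic AMP response element TGACGTCA, its variant TGACNTCA (which includes it) and its core TGACG (which overlaps it), besides the CArG box bound by SRF, the SMAD box CAGAC, the CCAAT box and the TATA box. Counted in bases from the start, TGACG stood at −106 in Junb and at −129 and −66 in Fos, and 19.9% of 32851 RefSeq promoter windows of that length hold it. Jun had TGACATCA at −45, a match to TGACNTCA, which 8.52% of windows hold. The CCAAT box (36.1% of windows) was found in Junb, Jun and, at 2 places, in Ier3. TATAAA (13.1% of windows) lay at −33 in Fos and at the RefSeq start in Junb. The GENCODE annotation places the Junb start at chr8:84978718, downstream of this window. All Junb positions given here thus depend on the annotation used. The AP-1 site (7.46% of windows), the full TGACGTCA (1.74%), the CArG box (1.56%) and the SMAD box (46.8%) had no match in any of the 6 windows. A match is a string of letters, and its use in these cells was not measured.

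The libraries gave no read totals. Steps between low FPKM values placed their depth at 1 to 1.81 times that of the shallowest, null line 39 at 6 h. Summed FPKM ran from 578104 to 805752, and the correlation across genes between both lines of a group was 0.989 to 0.993. Rnf111 stood at 3.19 to 4.27 FPKM in WT and 0.539 to 0.855 FPKM in null libraries, which matched the labels. All 8 stem cell markers were measured, with Pou5f1 at 562 to 926 FPKM. Of the fibroblast markers 5 of 10 were in the table, summing to 8.51 to 16.1 FPKM, of the endoderm markers 6 of 8 (6.53 to 11.03 FPKM) and of the neural markers 5 of 6 (23.4 to 39.0 FPKM). Trophoblast markers (7 of 8) summed to 78.9 to 156 FPKM, mostly from Krt8 and Krt18, and were higher in each null group (105.7 to 156 FPKM) than in each WT group (78.9 to 95.9 FPKM). In WT lines the fibroblast sum was lower with Activin (8.51 to 9.10 FPKM) than in SB (10.7 to 13.3 FPKM), and in both genotypes the endoderm sum was higher with Activin (8.51 to 11.03 FPKM) than in SB (6.53 to 8.24 FPKM), with Sox17 at 0 to 1.34 FPKM. In WT lines the neural sum was also lower with Activin (24.3 to 26.96 FPKM) than in SB (33.7 to 39.0 FPKM). The sum of the stem cell markers was higher there (2062 to 2216 against 1512 to 1555 FPKM), mostly from Pou5f1 and Dppa5a (532 to 1048 FPKM). Gene by gene the stem cell markers split, with 3 higher and 4 lower in WT at 3 h and 3 and 3 at 6 h. The part of such cells in the results was not tested. In such bulk RNA, fewer cells expressing a gene and less RNA per cell cannot be told apart.

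Per transcript length, Jund was the most abundant of the 9, with a mean of 56.4 FPKM over the 12 libraries, above 86.2% of tested genes. Ier2 followed at 39.4 FPKM, and no Ier2 value reached the lowest Jund value. Myc (12.6 FPKM), Junb (10.8) and Jun (10.4) had ranges that overlapped each other. Fosl2 (2.61 FPKM), Ier3 (2.503) and Fos (1.83) also overlapped, and Egr1 was lowest at 1.05 FPKM, above 7.31% of tested genes. These are levels of the loci, which hold 12.1% of the exon bases of Fos and 54.1% of those of Fosl2. The place of Fos in this order may thus not be that of its whole transcript. Across the 12 libraries the highest value of Junb was 6.29 times its lowest, that of Fos 3.48 times, Fosl2 3.13 times, Myc 2.19 times and Egr1 2.10 times. Jun (1.81 times), Ier3 (1.68), Ier2 (1.47) and Jund (1.47) varied least.

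**Figure D1:**
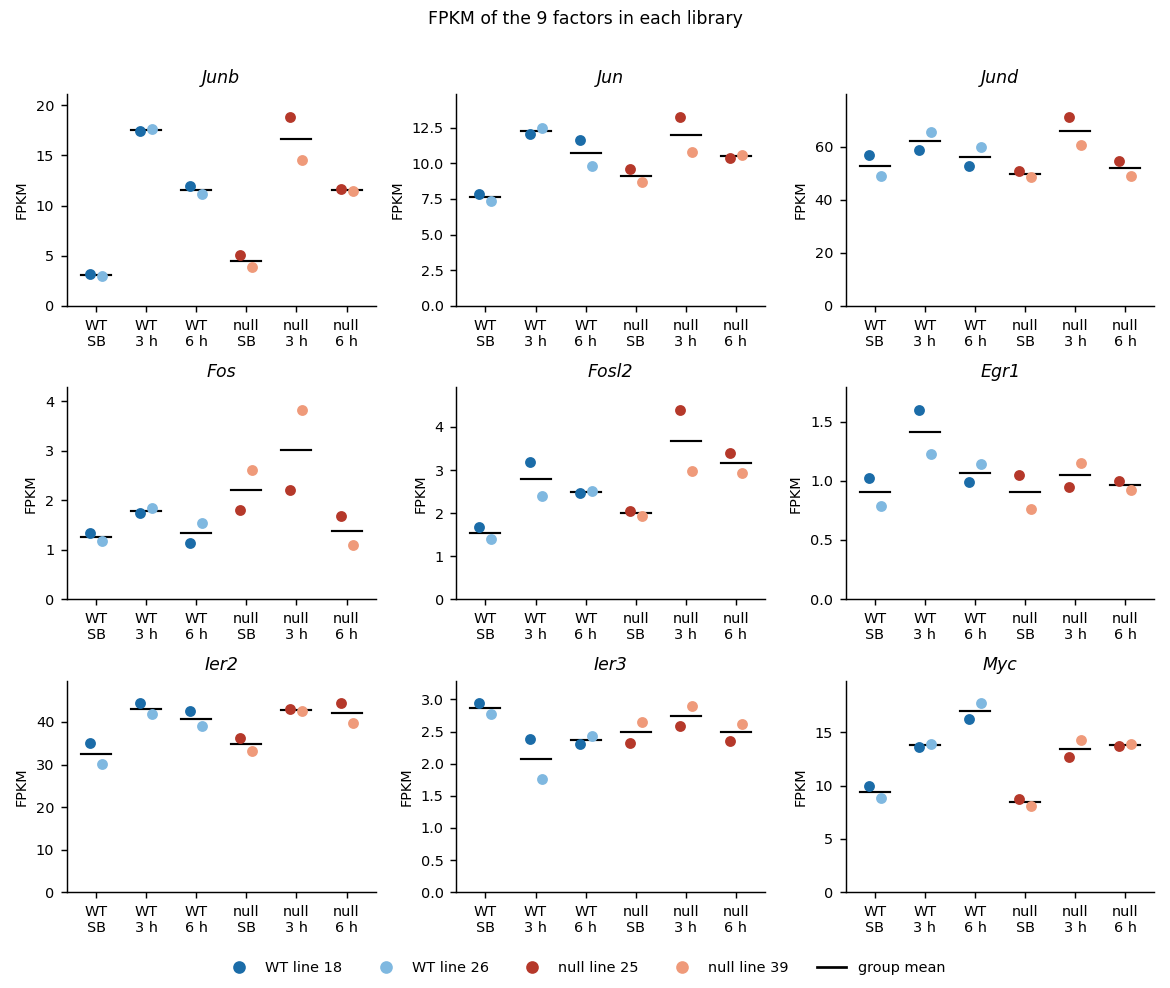
FPKM (vertical axes, from 0) of each of the 9 genes in the 6 groups (horizontal axes), where each library is a point, colours give the cell line and bars give the mean of 2 lines. Junb moved from 2.99 to 5.05 FPKM in SB to 14.5 to 18.8 FPKM at 3 h, while Jund, Ier3 and Egr1 stayed within 2.10-fold ranges.

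The first comparison asked which of these genes changed in WT cells given Activin. After 3 h, 5 of the 9 rose: Junb, Jun and Fosl2 of AP-1, besides Ier2 and Myc. None fell. Of all genes tested, 12.6% rose and 9.83% fell (limma, adjusted p below 0.05). After 6 h Junb, Jun, Ier2 and Myc rose and none fell, against 9.59% of all genes that rose and 6.31% that fell. In null cells Junb, Jund, Fosl2 and Myc rose at 3 h, where 6.5% of all genes rose and 7.14% fell, and Junb and Myc rose at 6 h, where 7.87% rose and 5.53% fell.

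The median log2 change of the 9 genes was 0.40 in WT at 3 h and 0.32 at 6 h, and 0.35 and 0.18 in null lines. Over all tested genes these medians were −0.01, 0.02, −0.01 and 0.01. With the cell line as a replicate block, 4772 genes in place of 2882 were called in WT at 3 h and 4342 in place of 2039 at 6 h, and in null lines 3788 in place of 1749 and 4026 in place of 1718. Members called were then 6 and 5 in WT and 6 and 4 in null lines. The split of all calls depended on scaling. In WT at 3 h it was 1622 higher and 1260 lower, and 1372 and 1699 after quantile normalization; at 6 h it was 1230 and 809, and 1160 and 1328. In null lines at 3 h it was 834 and 915, and 1079 and 669 after upper quartile scaling. Each of the 15 member calls kept its direction under both scalings.

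**Figure D2:**
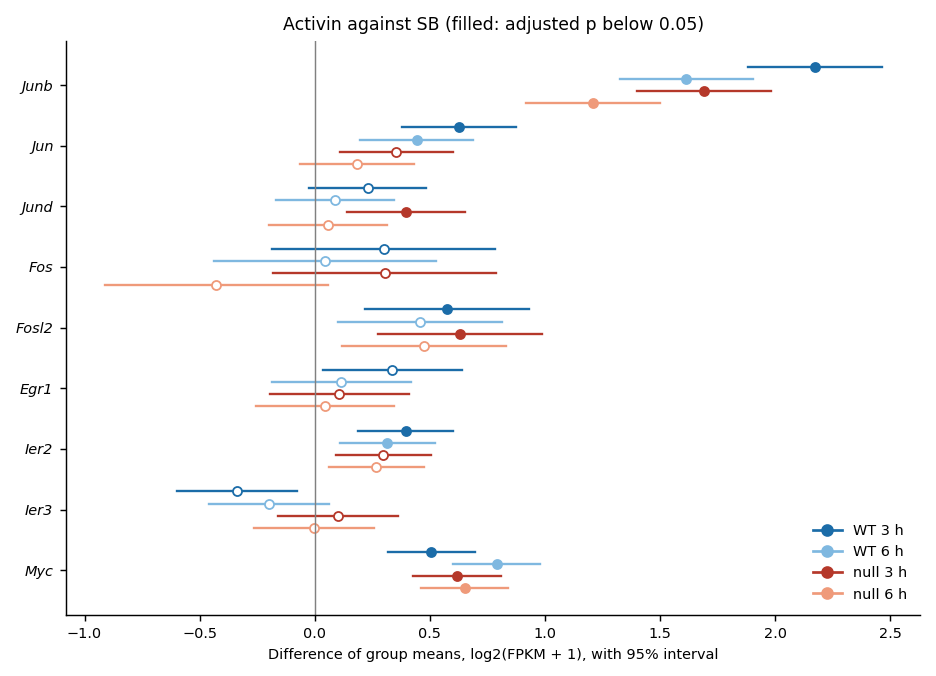
Difference between Activin and SB on the log2(FPKM + 1) scale (horizontal axis) for each of the 9 genes (vertical axis) in WT and null lines at 3 h and 6 h, with bars for the 95% interval; filled points had an adjusted p below 0.05. Junb lies furthest to the right in all 4 comparisons, at 1.21 to 2.17, and no filled point lies below 0.

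Junb, an AP-1 subunit (locus chr8:84976907-84978745, mm10, minus strand, spanning 78.6% of annotated exon bases), had the largest change of the 9 in each comparison with SB. In WT line 18 its level was 3.23 FPKM before Activin (SB), 17.4 after 3 h and 11.99 after 6 h, and in line 26 at 2.99, 17.6 and 11.2 FPKM. The null lines gave 5.05, 18.8 and 11.7 FPKM (line 25) and 3.89, 14.5 and 11.5 FPKM (line 39) in that order. Every library at 3 h was above every library at 6 h, and those above every SB library. The log2 change in WT was 2.17 at 3 h (SE 0.128, limma adjusted p = 1.776e-05) and 1.61 at 6 h (0.00012). The null lines changed by 1.69 (0.000134) and 1.21 (0.000679). The level at 3 h over that in SB was 5.403-fold and 5.88-fold in WT lines and 3.73-fold and 3.74-fold in null lines.

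Whole read counts could be recovered for Junb from the FPKM steps. WT line 18 had 167 reads in SB (exact Poisson 95% interval of the level 2.76 to 3.76 FPKM) and 955 at 3 h (16.4 to 18.6 FPKM). Null line 39, the shallowest, had 199 in SB and 619 at 3 h. These intervals cover counting error only. The Junb call at 3 h held under all 12 alternative settings in WT (highest adjusted p = 0.0208) and in null lines (0.0217). At 6 h in WT it ended without WT line 26, where the adjusted p was 0.0521.

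Jun, the prototype AP-1 subunit (chr4:95049071-95051583, minus strand, 78.8% of exon bases), rose less. In the order SB, 3 h, 6 h, it gave 7.87, 12.1 and 11.7 FPKM in WT line 18, and 7.32, 12.5 and 9.78 FPKM in WT line 26. Its null levels were 9.58, 13.2 and 10.4 FPKM in line 25, and 8.68, 10.8 and 10.6 FPKM in line 39. In each genotype both lines were above their SB group at both times. The log2 change in WT was 0.63 at 3 h (SE 0.108, limma adjusted p = 0.00657) and 0.44 at 6 h (0.0287). In null lines it was 0.35 at 3 h (0.0624, and 0.0298 with the replicate block) and 0.18 at 6 h (0.268). Leaving out WT line 18 or line 26 ended both WT calls, with log2 changes of 0.70 and 0.56 at 3 h. The cause was not tested.

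Jund, usually a constitutive AP-1 subunit that can restrain growth (chr8:70698876-70700615, plus strand, 99.9% of exon bases), was high in every library. Jund levels in SB, then 3 h, then 6 h were 56.9, 58.6 and 52.6 FPKM in WT line 18, with 48.8, 65.5 and 59.7 FPKM in line 26. The null line 25 series was 50.8, 71.1 and 54.4 FPKM, and the line 39 series 48.4, 60.6 and 49.0 FPKM. In WT the rise at 3 h lay mostly in line 26, and at 6 h the groups overlapped. The change was called in null lines at 3 h alone, with a log2 change of 0.40 (SE 0.112, limma adjusted p = 0.0492), and it was lost in 7 of the 12 alternatives, among them quantile normalization (0.0891) and leaving out any 1 of the 4 lines (0.0822 to 0.251). The WT change at 3 h was 0.23 (0.167), and the difference between genotypes was 0.17 (95% interval −0.19 to 0.53).

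The makeup of Jun family transcripts moved with Junb. Summed over Jun, Junb and Jund, the family stood at 59.1 to 68.0 FPKM in the 4 SB libraries and at 85.8 to 103.2 FPKM in the 4 libraries at 3 h. Junb made up 4.75% and 5.07% of that sum in WT lines in SB, 19.8% and 18.4% at 3 h and 15.7% and 13.9% at 6 h. In null lines it was 7.71% and 6.37% in SB, 18.2% and 16.9% at 3 h and 15.3% and 16.1% at 6 h. Jund remained the larger share in every library, at 66.5% to 83.7%. The Junb share was lower in each SB library than in any Activin library, and in SB it was lower in both WT lines than in both null lines.

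**Figure D3:**
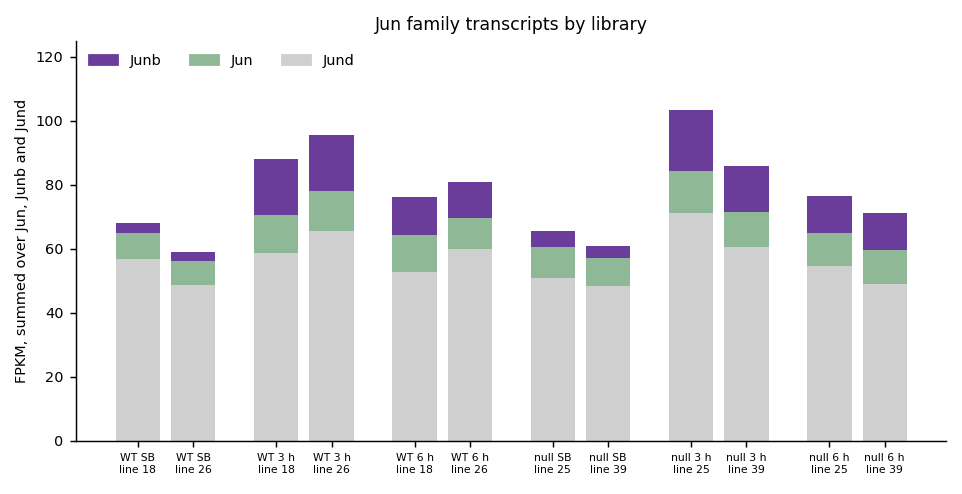
FPKM summed over Jun, Junb and Jund (vertical axis, from 0) in each of the 12 libraries (horizontal axis), with the 3 genes stacked. The Junb segment grew from 4.75% to 7.71% of the bar in SB to 13.9% to 19.8% in Activin, on top of a larger and steadier Jund segment.

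Of the Fos family, Fos, the partner of Jun in the classical AP-1 dimer, was measured over a stretch of 346 bases only (chr12:85473829-85474174, plus strand), 12.1% of its exon bases, so its values describe that stretch. From SB through 3 h to 6 h, WT line 18 read 1.34, 1.73 and 1.14 FPKM, and WT line 26 read 1.18, 1.83 and 1.55 FPKM. Over the same steps null line 25 read 1.81, 2.20 and 1.67 FPKM, and line 39 read 2.62, 3.82 and 1.10 FPKM. In every line the value at 3 h was the highest of the 3, yet null line 39 varied most and no change passed the test. The log2 difference at 3 h was 0.30 in WT (SE 0.213, limma adjusted p = 0.331) and 0.30 in null lines (0.36). From SB to 6 h in null lines it was −0.43 (0.197), and −0.78 (0.0433) without null line 25, where line 39 stands alone. No time before 3 h was sampled.

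Fosl2, which encodes the AP-1 subunit FRA2 (chr5:32135850-32153450, plus strand, 54.1% of exon bases), was higher in every Activin library than in any SB library. Its WT series (SB, 3 h, 6 h) ran 1.66, 3.19 and 2.46 FPKM for line 18 and 1.40, 2.39 and 2.502 FPKM for line 26. Its null series ran 2.04, 4.39 and 3.40 FPKM for line 25 and 1.94, 2.97 and 2.93 FPKM for line 39. Its log2 change at 3 h was 0.58 in WT (SE 0.157, limma adjusted p = 0.0334) and 0.63 in null lines (0.032). At 6 h it was 0.46 in WT (0.0763) and 0.48 in null lines (0.0765), and with the replicate block these passed (0.0291 and 0.0279). With the groups fitted alone the null call at 3 h ended (limma adjusted p = 0.168), and the WT change at 6 h passed (0.0395). The WT call at 3 h ended without WT line 18 (0.429) or line 26 (0.278), and the null call ended without either WT line (0.122 and 0.121) or null line 25 (0.213).

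Egr1, a zinc finger transcription factor of the early growth response (chr18:34861204-34864984, plus strand, 69.2% of exon bases), was near the lower limit of the test. Egr1 in WT line 18 measured 1.03 FPKM in SB, 1.60 after 3 h and 0.986 after 6 h, and in line 26 it measured 0.786, 1.22 and 1.14 FPKM. Among null lines it measured 1.05, 0.948 and 0.999 FPKM (line 25), or 0.760, 1.15 and 0.922 FPKM (line 39). Both WT lines were higher at 3 h than in SB (1.56-fold and 1.55-fold), while the null lines went in opposite directions and overlapped. The log2 difference at 3 h was 0.34 in WT (SE 0.132, limma adjusted p = 0.0967) and 0.11 in null lines (0.618). The libraries held 57 to 155 Egr1 reads; in null line 39 at 6 h, 57 reads gave an exact Poisson 95% interval of 0.698 to 1.19 FPKM.

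Ier2, an early response gene of nuclear location (chr8:84661327-84662911, minus strand, 100% of exon bases), was higher in every Activin library than in any SB library. WT levels of SB, 3 h and 6 h cultures were 35.0, 44.4 and 42.5 FPKM for line 18, against 30.1, 41.8 and 39.0 FPKM for line 26. Null levels were 36.3, 43.1 and 44.4 FPKM for line 25, against 33.2, 42.7 and 39.8 FPKM for line 39. The log2 change in WT was 0.40 at 3 h (SE 0.0904, limma adjusted p = 0.0191) and 0.32 at 6 h (0.0472). In null lines it was 0.30 (0.0613) and 0.27 (0.082), and with the replicate block 0.00805 and 0.01. The WT call at 6 h was lost under quantile normalization (0.116), upper quartile scaling (0.0857) and with the groups fitted alone (0.0696). Both WT calls were lost without WT line 18 or line 26, with changes of 0.46 and 0.33 at 3 h. The libraries held 1172 to 2054 Ier2 reads.

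Ier3, an early response gene tied to cell survival (chr17:35821686-35822911, plus strand, 98.8% of exon bases), was the only one of the 9 whose WT group mean was lower with Activin than in SB at both times. WT line 18 went from 2.94 FPKM in SB to 2.39 (3 h) and 2.31 (6 h), and line 26 from 2.78 FPKM to 1.75 and 2.42. Null line 25 went from 2.33 FPKM to 2.58 and 2.36, and line 39 from 2.66 FPKM to 2.90 and 2.62. Both WT lines in SB lay above all 4 WT libraries in Activin, whereas in null lines the groups overlapped. The log2 difference at 3 h was −0.34 in WT (SE 0.115, limma adjusted p = 0.0644). It passed with the replicate block (0.036) and with upper quartile scaling (0.042). In null lines it was 0.10 (0.589). Ier3 had 51 to 98 reads per library, and in WT line 26 at 3 h 52 reads gave an exact Poisson 95% interval of 1.31 to 2.30 FPKM, against 2.26 to 3.39 FPKM from 98 reads in SB.

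Myc, the E-box transcription factor that drives growth and ribosome production and that supports self-renewal of stem cells (chr15:61985373-61990359, plus strand, 99.4% of exon bases), rose in all 4 lines. Starting at 9.98 FPKM in SB, WT line 18 reached 13.7 after 3 h and 16.3 after 6 h, and line 26 started at 8.85 FPKM and reached 13.9 and 17.7. Null line 25 started at 8.75 FPKM and reached 12.6 and 13.7, and line 39 started at 8.08 FPKM and reached 14.3 and 13.9. All 8 Activin libraries lay above all 4 SB libraries, and in WT lines the 6 h values lay above the 3 h values. The log2 change in WT was 0.51 at 3 h (SE 0.0836, limma adjusted p = 0.00532) and 0.79 at 6 h (0.00054). In null lines it was 0.62 (0.00323) and 0.65 (0.00195). Both null calls ended with the groups fitted alone (limma adjusted p of 0.0812 and 0.0697). The WT calls ended without WT line 18 (0.145 at 3 h and 0.0513 at 6 h) or line 26 (0.241 and 0.125), with changes of 0.42 to 0.93 in the line that was left.

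Between 3 h and 6 h none of the 9 passed the test. In WT lines 1.22% of all genes rose and 1.31% fell over that time, and in null lines 2.78% rose and 1.86% fell. In null lines that was 356 against 238 genes, and 187 against 308 after upper quartile scaling. At an unadjusted p below 0.05 limma gave 2 of the 9 in WT (Junb and Myc) and 3 in null lines (Junb, Jund and Fos). The same threshold gave 2161 of all 12823 genes in WT and 2844 in null lines. Junb was lower at 6 h in all 4 lines, at 0.687 and 0.636 times its 3 h level in WT lines and 0.621 and 0.789 times in null lines. Its log2 difference was −0.56 in WT (adjusted p = 0.0628) and −0.48 in null lines (0.071), and both passed with the replicate block (0.0205 and 0.0195). Myc was 0.28 higher in WT at 6 h than at 3 h (0.125) and 0.03 in null lines (0.869). The Fos difference in null lines was −0.73 (0.0906), with line 39 at 0.288 times its 3 h level.

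The comparison of genotypes asked whether these genes differed between null and WT lines under the same treatment, and none of the 9 passed the test in SB, at 3 h or at 6 h. In SB 0.25% of all genes were higher in null lines and 0.0624% lower. At 3 h these were 0.133% and 0.25%, and at 6 h 0.148% and 0.0624%. The split was 32 and 8 genes in SB (25 and 11 after quantile normalization) and 17 and 32 at 3 h (22 and 23 after upper quartile scaling). These counts turned on single lines: without null line 25, 2047 genes were called in SB, 136 at 3 h and 1508 at 6 h, against 40, 49 and 27, whereas without null line 39 there were 10, 8 and 8. Leaving out WT line 18 gave 0 each time, leaving out line 26 gave 2, 0 and 0, and fitting the groups alone gave 0 each time. At an unadjusted p below 0.05 limma gave Junb and Fos in SB, Fos and Ier3 at 3 h and Myc at 6 h. The same threshold gave 1910 of all 12823 genes in SB, 1655 at 3 h and 1881 at 6 h.

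In SB the null values of Junb, Jun, Fos and Fosl2 lay above the WT values without overlap, and those of Ier3 and Myc below. At 3 h Fos and Ier3 lay above and Egr1 below, and at 6 h Fosl2 lay above and Myc below. With n = 2 in each group such separation arises easily without a real difference, and its share over all genes was not counted. Junb in SB was 4.47 ± 0.823 FPKM in null and 3.11 ± 0.166 FPKM in WT lines (SD, n = 2), a log2 difference of 0.40 (95% interval 0.11 to 0.69, limma adjusted p = 0.247). At 6 h it was 11.6 FPKM in both genotypes, a difference of −0.0012 (95% interval −0.29 to 0.29). Fos was higher in null lines in SB, at 2.21 ± 0.572 against 1.26 ± 0.116 FPKM (difference 0.49, adjusted p = 0.332), and at 3 h (0.50, 0.379). Without null line 25 the Fos difference in SB was 0.68 and passed (0.0345). Myc at 6 h was 13.8 ± 0.149 in null and 17.0 ± 1.04 FPKM in WT lines, a difference of −0.28 (95% interval −0.47 to −0.09, adjusted p = 0.222) that kept its sign in all 12 alternatives.

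**Figure D4:**
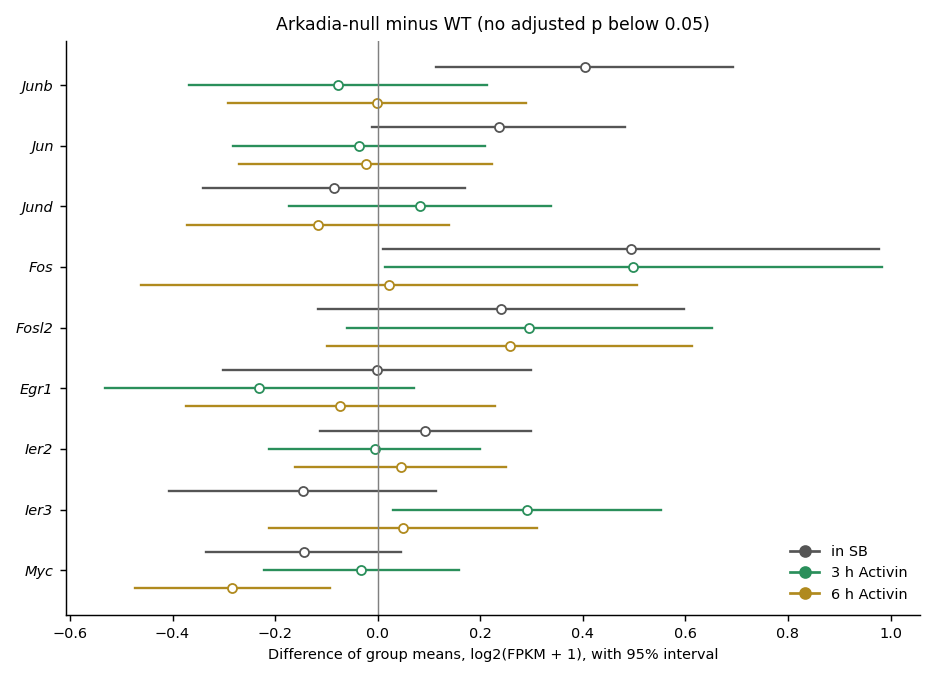
Difference between null and WT lines on the log2(FPKM + 1) scale (horizontal axis) for each of the 9 genes (vertical axis) in each of the 3 treatments, SB, 3 h and 6 h, with bars for the 95% interval. No adjusted p was below 0.05, and intervals that leave out 0 are those of Junb and Fos in SB, Fos and Ier3 at 3 h and Myc at 6 h.

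The response itself was also compared between genotypes. None of the 9, and 0% of all genes in either direction, passed the test for a different response at 3 h, nor did any at 6 h (0% higher and 0% lower). At an unadjusted p below 0.05 limma gave 654 genes at 3 h and 382 at 6 h. Among them at 3 h were Junb and Ier3, and at 6 h none of the 9. For Junb the null response less the WT response was −0.48 at 3 h (95% interval −0.89 to −0.07, limma adjusted p = 0.928) and −0.40 at 6 h (−0.82 to 0.01). Its level in null lines differed from WT by 0.40 in SB and by −0.08 at 3 h. For Ier3 the difference at 3 h was 0.44 (0.07 to 0.81, limma adjusted p = 0.912). For Myc it was 0.11 (−0.16 to 0.38) at 3 h and −0.14 (−0.41 to 0.13) at 6 h.

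Other genes of these pathways were read from lists, whose counts are to be read against all genes. Some were measured at loci with few of their exon bases, such as Mlxipl (6.66%), Maf (7.44%) and Elk3 (14%). In WT 12.6% of all genes rose and 9.83% fell at 3 h, and 9.59% rose and 6.31% fell at 6 h. In null lines 6.5% rose and 7.14% fell at 3 h, and 7.87% rose and 5.53% fell at 6 h. Of 18 further AP-1 and bZIP partners, 14 were tested, and 4 rose and 0 fell in WT at 3 h (median log2 change 0.18, against −0.01 over all genes). They included Maff (0.78, limma adjusted p = 0.0021), which encodes a small MAF family bZIP factor, Crem (0.54, 0.0402) and Atf3 (0.46, 0.0242). At 6 h 4 rose and 1 fell, with Batf3, a BATF family partner of Jun proteins, highest (0.81, 0.00603) and Nfe2l2, the oxidative stress factor NRF2, lower (−0.30, 0.0176). In null lines 2 rose at 3 h, Maff (0.44) among them, and at 6 h 3 rose, among them Maff (0.72) and Crem (0.57), and Nfe2l2 fell (−0.26). The genes named for null lines in this and the other lists were named after their values were seen. Maff stood at 6.30 and 5.30 FPKM in WT lines in SB and at 11.1 and 10.1 FPKM at 3 h, and in null lines at 7.199 and 7.70 FPKM and then at 10.6 and 10.4 FPKM. Fosb, Batf, Batf2 and Mafg were not analysed here.

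Among 38 tested of 44 other immediate early genes, 16 rose and 5 fell in WT at 3 h, with a median log2 change of 0.22. The shares over all genes were 12.6% and 9.83% there. At 6 h 12 rose and 3 fell. In null lines 14 rose and 3 fell at 3 h and 9 rose and 4 fell at 6 h. With the replicate block 14 rose and 7 fell at 6 h, where it called 2490 of all 12823 genes higher and 1536 lower. Without null line 25 or line 39 the null counts of this list were lower at both times. With the groups fitted alone they were 5 and 0 at 3 h, and 3 and 0 at 6 h. Of all genes that fit called 154 higher and 22 lower at 3 h, and 102 and 25 at 6 h. Without line 25 the other lists given here kept few or no calls in null lines at 3 h, where fewer of all genes were called. Without WT line 18 or line 26 few genes of this list, and none of the other lists given here, were called in WT at 3 h. Far fewer of all genes were called there too. Irf1, an interferon regulatory factor, had the largest rise in WT at 3 h (4.10, SE 0.091, limma adjusted p = 5.596e-08), followed by Id1, an inhibitor of bHLH factors (1.80), Ctgf, a secreted matrix protein (1.68), and Rhob, a small GTPase (1.34). Klf2, a Krüppel-like factor of the naive stem cell state, fell by 1.24 in WT lines, as did Gadd45g, Snai1, Plk3 and Gadd45a to lesser extents. The genes that fell in null lines were Klf2, Gadd45g and Gadd45a at 3 h, and Klf2, Id1, Gadd45g and Btg1 at 6 h, where Id1 was 0.85 log2 units below SB (−0.85). At 6 h Cyr61, also a matrix protein, was among the 5 with the largest change (0.89). From 3 h to 6 h 4 fell in WT lines, Id1, Btg2, Irf1 and Rhob, which were named here after their values were seen, and 0 rose. Over that time 1.31% of all genes fell and 1.22% rose. Egr2, Egr3, Egr4 and Nr4a3 were not analysed here.

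**Figure D5:**
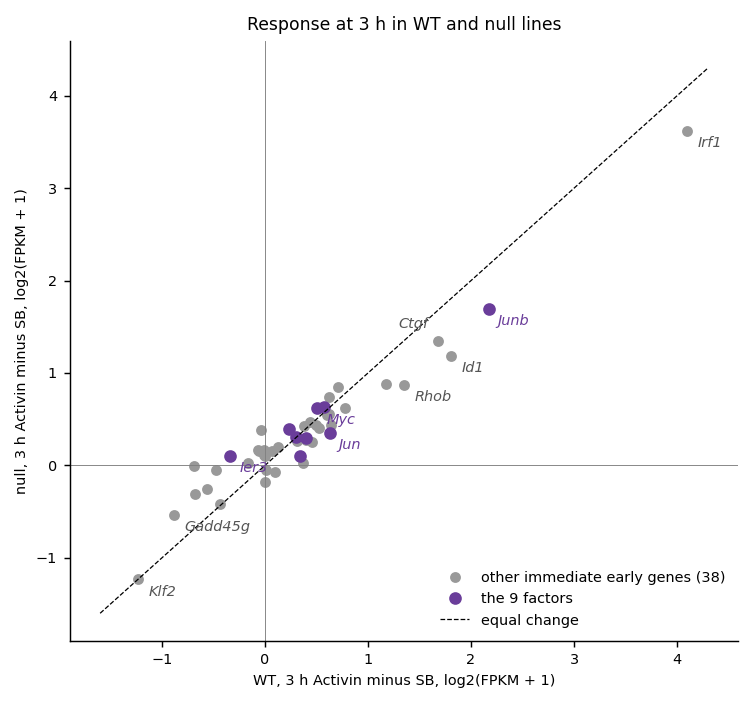
Log2 difference between 3 h Activin and SB in WT lines (horizontal axis) and null lines (vertical axis) for the 9 genes and 38 other immediate early genes, a point per gene, with a dashed line for equal change. Junb lies at 2.17 and 1.69, and Irf1 is the point furthest to the upper right at 4.10 and 3.62.

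Between genotypes 2 of these 38 genes passed the test, both higher in null lines in SB and at 3 h. Over all genes the shares higher in null lines were 0.25% in SB and 0.133% at 3 h. Id1 stood at 12.2 and 11.4 FPKM in WT and 47.5 and 36.0 FPKM in null lines in SB (log2 difference 1.73, limma adjusted p = 0.00607), and at 41.0 and 46.4 against 103.9 and 87.7 FPKM at 3 h (1.11, 0.0445). Cyr61 stood at 10.8 and 8.91 FPKM in WT and 17.4 and 17.1 FPKM in null lines in SB (0.75, 0.0182) and was also higher at 3 h (0.59, 0.0472). For both genes the null values lay above the WT values in SB and at 3 h. The calls in SB ended without WT line 18, WT line 26 or null line 39. With the groups fitted alone they ended too (limma adjusted p of 0.1958 for Id1 and 0.3645 for Cyr61). Those at 3 h ended without any 1 of the 4 lines and with the replicate block (0.0616 and 0.0519). They also ended with a pseudocount of 0.1 (0.056 for each gene) and with the groups fitted alone (0.1313 and 0.2496). After quantile normalization the Id1 call at 3 h ended as well (0.06785). The differences kept their sign in all of these. At 6 h neither passed, with differences of 0.83 for Id1 (adjusted p = 0.12) and 0.61 for Cyr61 (0.0562).

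Kinases and ETS or SRF factors upstream of AP-1 were called at shares that can be read against all genes, of which 12.6% rose and 9.83% fell in WT at 3 h and 9.59% rose and 6.31% fell at 6 h. Of 16 tested of 17, 0 rose and 3 fell in WT at 3 h, the MAP kinase kinase gene Map2k1 (−0.36, limma adjusted p = 0.0093) and the MAP kinase genes Mapk14 (−0.27, 0.0237) and Mapk3 (−0.23, 0.0492). At 6 h Mapk8, the JNK1 gene, rose (0.31, 0.0198) and Map2k2 fell (−0.32, 0.0458). In null lines Map2k1 fell at 3 h (−0.39), and at 6 h Mapk8 rose (0.39) and Map2k2 fell (−0.38). With the replicate block the counts were 1 and 4 in WT at 3 h, 2 and 2 at 6 h, and 3 and 2 and then 2 and 2 in null lines. The shares above are those of the main fit. Of all 12823 genes the block called 2728 higher and 2044 lower in WT at 3 h, and 2770 and 1572 at 6 h. In null lines it called 1986 and 1802 at 3 h, and 2490 and 1536 at 6 h.

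Of 15 MAPK feedback genes, which encode phosphatases and inhibitors that dampen MAP kinase signals, 1 rose and 4 fell in WT at 3 h. The shares over all genes were 12.6% and 9.83% there. Dusp4, a nuclear MAP kinase phosphatase, stood at 32.8 and 30.7 FPKM in WT lines in SB and at 13.7 and 13.3 FPKM at 3 h, a log2 change of −1.18 (SE 0.142, limma adjusted p = 0.0011). In null lines it stood at 31.2 and 24.8 FPKM and then at 16.9 and 13.4 FPKM. Spred1 (−0.62), Spry4 (−0.58) and Dusp1 (−0.36) fell too, whereas Spry1 rose (0.54, 0.00991). At 6 h 2 rose, Spry1 and Dusp2 (0.50), and 4 fell, Dusp4, Spry4, Spred1 and Spry2. In null lines Dusp2 and Spry1 rose and Dusp4 and Spred1 fell at 3 h. At 6 h 3 rose (Spry1, Dusp2 and Dusp6) and 3 fell (Dusp4, Spry4 and Spred1). The replicate block gave 4 and 3 at 3 h in null lines, where it called 1986 of all 12823 genes higher and 1802 lower.

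Of the relatives of Myc, Mycl rose with Activin as Myc did, and Mycn was lower. Mycn, its neural paralogue, stood at 39.5 and 36.4 FPKM in WT lines in SB, 25.4 and 25.8 at 3 h and 27.8 and 28.9 at 6 h, and fell by 0.55 (SE 0.0831, limma adjusted p = 0.00369) and 0.41 (0.0151) on the log2 scale. Null lines had 37.0 and 31.9 FPKM, then 32.2 and 30.2, then 28.4 and 26.0, with a fall of 0.33 at 6 h (0.037) and a difference of −0.14 at 3 h (0.297). Mycl rose in WT at 3 h by 0.74 (0.0045) and in null lines by 0.74 (0.00617). Myc made up 18.0% and 18.4% of the FPKM summed over Myc, Mycn and Mycl in WT lines in SB and 32.6% and 33.5% at 6 h, and in null lines 17.8% and 18.8%, then 28.8% and 31.3%. Mycn remained the largest of these shares in all 12 libraries.

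In the MYC and MAX network 1 of 11 tested of 14 rose (Mycl) and 1 fell (Mycn) in WT at 3 h and at 6 h. The shares over all genes were 12.6% higher and 9.83% lower at 3 h, and 9.59% and 6.31% at 6 h. In null lines Mycl and Mlxip (0.36) rose at 3 h, and at 6 h Mycl rose and Mycn fell. Of 24 MYC target genes 20 were tested, among them Ldha at a locus with 0% of its exon bases. Of these, 2 rose and 1 fell in WT at 3 h, with a median log2 change of −0.02. They were Eif4e, the cap-binding translation factor (0.38, limma adjusted p = 0.038), Nop58 (0.24, at a locus with 9.29% of its exon bases) and Nolc1 (−0.33, 0.0339). At 6 h 1 rose, the transferrin receptor gene Tfrc (0.28, 0.026). In null lines limma called 0 at 3 h (6 at an unadjusted p below 0.05, against 4069 of all 12823 genes) and Tfrc at 6 h (0.27). With the replicate block the counts were 6 higher and 3 lower in WT at 3 h, 7 and 3 at 6 h, 2 and 4 in null lines at 3 h, and 6 and 1 at 6 h. Of all 12823 genes that block called 2728 higher and 2044 lower in WT at 3 h, and 2770 and 1572 at 6 h. In null lines it called 1986 and 1802, then 2490 and 1536. After quantile normalization the counts of the list turned to 0 higher and 9 lower in WT at 3 h and 0 and 6 at 6 h. In null lines they were 0 and 5 and then 0 and 2. Over all genes that scaling gave 1372 higher and 1699 lower in WT at 3 h, and 1160 and 1328 at 6 h. The split of this list thus differed between settings, and no direction is given for it.

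The genes with the pattern most like that of a member were sought among 2599 tested genes whose log2(FPKM + 1) ranged over at least 1, over the 12 libraries, which share the 6 treatments and the 4 lines. For Junb these were Fzd10, Sfn and Lgr4 (Pearson r of 0.987, 0.987 and 0.986), and 134 genes reached 0.9. For Myc they were Cbln4, Vmn2r3 and Slc7a7 (0.963, 0.96 and 0.956), with 68 genes at 0.9 or more. For Fos they were 1700084E18Rik, Gm10663 and Id2 (0.863 to 0.835), for Egr1 Cysrt1, Trim62 and Bend7 (0.865 to 0.846), and for Ier3 Sox1, Fam161b and Boc (0.798 to 0.72). None of the genes searched reached 0.9 with Fos, Egr1 or Ier3. These values are descriptions without a test.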

How the data were processed

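RNA from 12 libraries (50 bp single reads, poly(A) selected, per the labels' protocols) was described by 1 deposited table of FPKM per locus, per the file headers. Coordinates are mm10 (submitters' processing notes). The sources used here do not name the aligner, quantifier, strand setting or scaling, so overlapping and antisense genes are uncertain. From these FPKM, 27 loci with a status other than OK and 2666 unnamed loci were left out. Genes with at least 1 FPKM in at least 2 libraries were tested with limma 3.58.1 (R 4.3.3; variances moderated with a trend) on log2(FPKM + 1), which understates changes of low genes, with a mean for each of 6 groups, 6 residual degrees of freedom, two-sided tests and Benjamini-Hochberg adjustment over all genes (threshold 0.05). This procedure was run on simulated data with independent errors and shifts of 1 and 2 log2 units in WT at 3 h only. That run does not cover smaller changes, lines shared between groups or comparisons of genotypes. With 2 lines per group and 1 library per line and treatment, p-values measure a spread in which line, dish and library are joined. The main fit takes libraries of the same line in different groups as independent.

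Relative depths and whole reads came from FPKM steps (557 of 580 low loci, 96%, were whole to within 0.03 reads). Reads were recovered for Junb, Egr1, Ier2 and Ier3. Replicate numbers are cell lines and so pair libraries of a genotype (correlation of deviations 0.0165 to 0.0537 in WT, 0.246 to 0.349 in null lines). The members and the gene lists were chosen with earlier results of these data known. Every member is named; of each list, the up to 5 called genes with the largest change in WT at 3 h and at 6 h are named, and for 5 members the 3 genes with the highest correlation. One gene of the AP-1 partner list is counted there but not reported here. Alternatives were pseudocounts of 0.1 and 5, no filter, a filter at 5 FPKM, quantile and upper quartile scaling, the replicate block, groups alone and each line left out.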

Additional observations from a re-analysis of the deposited data

How the results depend on the processing

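No called value of the 9 genes reversed under any alternative. Of their 99 results, 99 kept their side of the threshold with a pseudocount of 0.1, 97 with 5, 98 without a filter, 55 of 55 testable with a filter at 5 FPKM, 95 after quantile normalization, 96 after upper quartile scaling, 91 with the replicate block and 93 with the 2 groups fitted alone. Of the named list genes, Nop58 in WT at 3 h turned from 0.24 to −0.083 after quantile normalization. The cause was not tested.

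With a line left out the lone line is assumed to vary like the others. The number of the 9 genes called then ran from 1 to 5 in WT at 3 h, 0 to 5 in WT at 6 h, 0 to 1 from 3 h to 6 h in WT, 2 to 3 in null lines at 3 h and at 6 h, and 0 to 1 between genotypes in SB. Without WT line 18 or line 26, far fewer of all genes were called in WT at 3 h than in the main fit (2882). Without either null line more were called there. The cause was not tested. Depth limits Egr1 (57 to 155 reads a library) and Ier3 (51 to 98).

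From 3 h to 6 h in WT, 1 of the 9 (Junb) in place of 0 was called with a pseudocount of 5, with quantile normalization and with the replicate block, and in null lines 1 with the block. In null lines the groups fitted alone gave 1 in place of 4 at 3 h and 1 in place of 2 at 6 h, and the block gave 4 in place of 2 at 6 h. The block changed no call of the 9 genes between genotypes.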
